A study of Homo sapiens with 24 samples.

Results

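A2780cis cells exposed to 1 μM 5-FdU-ECyd for 6 h were compared with untreated A2780cis cells of the same time, across all expressed genes. The comparison rests on 6 libraries, 3 treated and 3 control, of the 24 in the series, and was chosen by the labels of the libraries. A2780cis is a platinum-resistant human ovarian cancer cell line, isogenic to the platinum-sensitive line A2780, and was kept resistant by a passage in 1 μM cisplatin at intervals, so both groups carried this history. Treatment began 48 h after seeding, and control cells received fresh medium without the drug. Libraries were made from total RNA with a stranded kit. The labels do not say what separates the replicates, which the authors call biological triplicates without describing how they were set apart. The p-values rest on the spread within groups over all 24 libraries of the series, part of which may be technical.

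5-FdU-ECyd is a duplex prodrug that joins 2'-deoxy-5-fluorouridine, a nucleoside whose phosphate blocks thymidylate synthase and thus the supply of thymidine for DNA, with 3'-C-ethynylcytidine, a nucleoside whose triphosphate inhibits RNA synthesis. DNA damage and a block of rRNA synthesis are both known to stabilise p53, which switches on genes that halt the cell cycle or favour apoptosis and lowers genes of mitosis through p21 and the DREAM complex. When RNA polymerase II is inhibited, transcripts with short half-lives, such as those of immediate early genes, are known to respond first, and a long gene takes longer to transcribe from end to end than a short one.

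Between 11077368 and 21901406 counts were assigned per library, treated replicate 3 being the deepest of the 6. Of 63299 genes in the table, 20240 passed the filter on low counts and were tested. Levels are given in CPM, counts scaled to the size of the library after TMM normalization, and log2 FC is the fitted log2 ratio of treated to control. All adjusted p-values are those of the quasi-likelihood test of edgeR, adjusted by Benjamini-Hochberg over the tested genes, and a gene at or under 0.05 is called changed. As libraries were made from equal amounts of RNA, fewer transcripts of a gene and a larger pool of other RNA cannot be told apart. Of 15 epithelial and ovarian cancer line markers, 5 (PAX8, MUC16, KRT7, SOX17 and EMX2) were at 0 throughout the 6 libraries. CDH1, EPCAM, KRT19, WT1 and MSLN lay at 0 to 0.491 CPM. KRT18 and KRT8, keratins of simple epithelia, lay at 20.6 to 28.4 and 4.07 to 6.36 CPM. VIM, the mesenchymal intermediate filament vimentin, lay between 1637 and 2769 CPM and made up most of the list's sum, which was 2510 to 2956 CPM in the controls and 1757 to 1881 CPM in the treated libraries. The 15 fibroblast and endothelial markers summed to 1950 to 2244 CPM in the controls and 1652 to 1868 CPM in the treated libraries: COL3A1, a collagen chain, was at 1563 to 2168 CPM and THY1 at 63.0 to 87.5 CPM, while the endothelial genes PECAM1, VWF and CDH5 were at 0. The 14 leukocyte markers summed to 8.67 to 10.4 CPM in the controls and 8.32 to 9.89 CPM in the treated libraries, of which CD68 made up 5.70 to 7.44 CPM and CD4 1.39 to 2.51 CPM, and the defining genes CD3E, CD3D and MS4A1 were at 0.

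After 6 h of treatment 6212 genes were called, or 30.7% of those tested. Of these, 2917 (14.4%) were higher and 3295 (16.3%) lower in treated cells. Scaling by library size alone shifted the split to 3782 higher and 2373 lower, or 61.5% higher against 47.0% with TMM. Most changes were small: the median log2 FC was 0.77 over the genes called upwards and -0.54 over those called downwards, and 987 and 486 genes changed at least 2-fold. Called genes that moved by 2 or more on the log2 scale numbered 364 (1.80%), 298 upwards and 66 downwards. Of the 298, 206 had at most 3 counts in every control library, and for these the fitted value rests on the prior count and gives no bound. When only the 6 compared libraries entered the fit, 153 genes reached this size.

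The largest increases were taken from called genes averaging 2 or more in log2 CPM over the 6 libraries whose groups did not overlap. They included regulators of cell cycle arrest and transcription factors of the immediate early response. CDKN1A, which encodes the cyclin-dependent kinase inhibitor p21, was measured at 11.6, 12.2 and 11.2 CPM in the control libraries and 78.5, 85.9 and 90.0 CPM in the treated libraries (log2 FC 2.86 ± 0.12 SE, adjusted p = 9.06e-15). Groups without overlap were a condition of the choice, and neither group spread widely. BTG2, an antiproliferative gene of the p53 response that promotes mRNA deadenylation, stood at 20.5, 21.7 and 22.2 CPM in the control libraries and 151, 145 and 156 CPM in the treated libraries (log2 FC 2.81 ± 0.12 SE, adjusted p = 1.07e-14). FOS, a subunit of the AP-1 transcription factor, was found at 1.29, 2.01 and 2.21 CPM in the control libraries and 14.8, 17.3 and 18.7 CPM in the treated libraries (log2 FC 3.20 ± 0.17 SE, adjusted p = 7.38e-13). The FOS controls held at most 27 counts, and the treated libraries lay close together. PLK3, a polo-like kinase of the stress response, stood at 4.34, 4.81 and 4.99 CPM in the control libraries and 18.5, 25.3 and 27.2 CPM in the treated libraries (log2 FC 2.33 ± 0.16 SE, adjusted p = 7.46e-11). PAQR6, a membrane progesterone receptor gene, was measured at 2.13, 1.00 and 1.88 CPM in the control libraries and 8.45, 11.8 and 11.6 CPM in the treated libraries (log2 FC 2.65 ± 0.27 SE, adjusted p = 4.69e-08). FOS and PAQR6 passed the limit on mean log2 CPM only through the treated libraries, with controls at 1.29 to 2.21 and 1.00 to 2.13 CPM. A gene with the identifier ENSG00000274627.1, which had no match in GENCODE release 44, also rose (log2 FC 2.65). The remaining 4 of the 10 largest increases were near-identical lncRNA genes within rDNA repeats, described with the short RNAs. They and the 6 genes above make up the left panel of the plot of the largest changes.

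**Figure D1:**
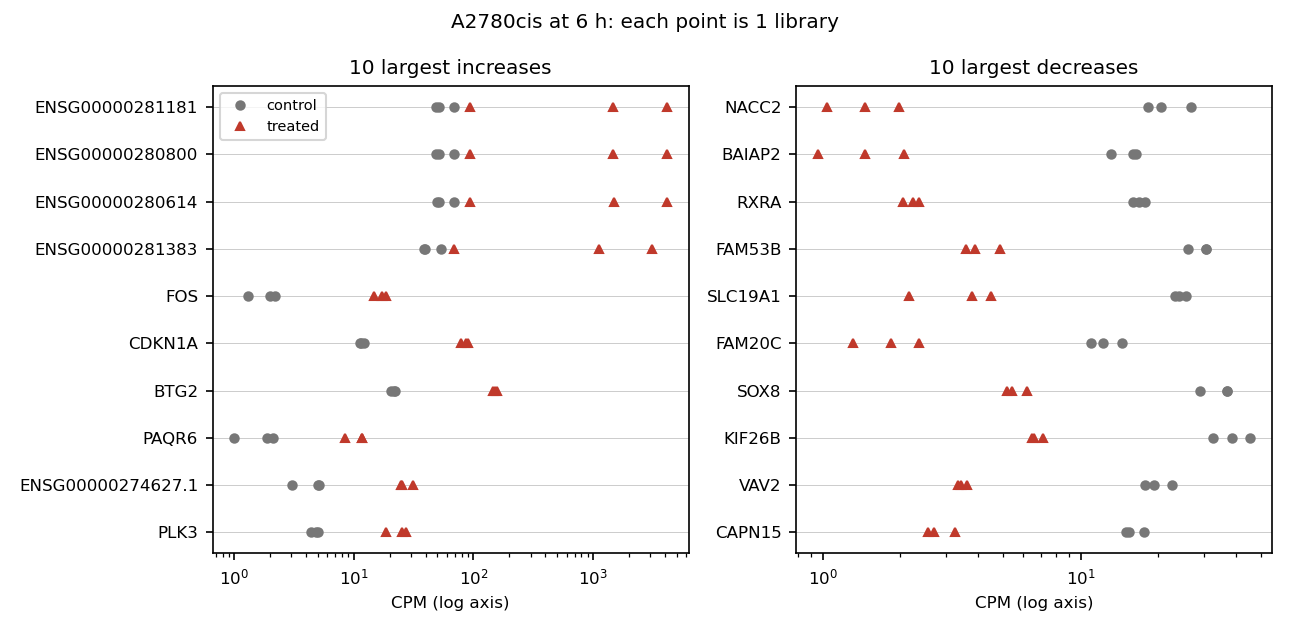
CPM on a log axis for the 10 largest increases (left) and 10 largest decreases (right) among called genes that averaged 2 or more in log2 CPM and whose groups did not overlap. Each grey circle is a control library and each red triangle a treated library of A2780cis at 6 h. The 4 rDNA genes at the top left have 1 treated library near the controls, while the treated libraries of NACC2 sit between 1.04 and 1.98 CPM, below controls at 18.2 to 26.7 CPM.

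Of a list of 50 p53 target genes, 35 of 47 passed the test upwards and 2 downwards, with a median log2 FC of 0.78, against 14.4% and 16.3% of all genes tested, whose median was 0.00. Among regulators of the cell cycle and of DNA repair, GADD45A, a stress sensor, rose from control levels of 3.33 to 5.89 CPM to 21.2 to 22.7 CPM (log2 FC 2.22 ± 0.15 SE, adjusted p = 8.88e-11). SESN1 and SESN2, the sestrins that restrain mTORC1, rose by 1.67 and 1.63 on the log2 scale. DDB2, which recognises ultraviolet lesions, and RRM2B, the p53-inducible ribonucleotide reductase subunit, rose by 1.14 and 0.80. MDM2, the ubiquitin ligase that degrades p53, was measured at 132, 174 and 148 CPM in the control libraries and 271, 269 and 241 CPM in the treated libraries (log2 FC 0.78 ± 0.11 SE, adjusted p = 5.03e-06).

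Among target genes with a role in cell death, BBC3 (PUMA) rose from 0.818 to 1.39 CPM in the controls to 5.02 to 8.10 CPM (log2 FC 2.55 ± 0.33 SE, adjusted p = 1.77e-06). BAX, the pore-forming effector, rose by 1.02. EDA2R, a receptor of the TNF family, rose from 15.6 ± 0.430 to 49.5 ± 1.08 CPM (SD, n = 3 each) (log2 FC 1.67 ± 0.09 SE, adjusted p = 1.16e-12 from edgeR). Other members did not pass the test: FAS, the gene of a death receptor, had a log2 FC of 0.14 (adjusted p = 0.43 in edgeR's quasi-likelihood test) and APAF1 0.26 (adjusted p = 0.154), and with GC-dependent offsets both passed. Of 45 apoptosis genes tested, 13 were called upwards (28.9%, against 14.4% of all genes tested). Downwards 7 were called (15.6%), a share near the 16.3% of all genes. Their median log2 FC was 0.10, or 0.00 with genes at the floor of 3 counts set to their bound. The decoy receptor TNFRSF10D, a member of this list, rose by 1.74.

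Immediate early genes, which are induced without new protein synthesis, also stood apart from the background: of 58 listed, 35 of 54 passed the test upwards and 7 downwards, with a median log2 FC of 0.82. EGR1, a zinc finger factor of this class, was measured at 43.2, 62.0 and 52.1 CPM in the control libraries and 111, 108 and 120.4 CPM in the treated libraries (log2 FC 1.11 ± 0.12 SE, adjusted p = 8.96e-08). JUNB and IER2 rose by 1.70 and 1.31 on the log2 scale, and JUN rose by 1.29. Members moved the other way too: MYC fell from 92.4 to 116 CPM in the controls to 71.6 to 75.7 CPM (log2 FC -0.54), and KLF6 had a log2 FC of -0.45, with overlapping groups and a call that was lost without control replicate 2 or treated replicate 2. BTG2 belongs to this list and to that of p53 targets.

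Genes of mitosis and of the G2/M transition held the largest share of calls downwards among the lists followed. Of 69 tested, 58 passed the test downwards (84.1%) and 0 upwards, with a median log2 FC of -0.72. Over all genes tested, 16.3% were called downwards and 14.4% upwards. No member passed upwards in edgeR or DESeq2, and 0 were higher at an unadjusted p under 0.05. PLK1, the kinase that drives entry into mitosis, was measured at 64.9, 75.7 and 63.2 CPM in the control libraries and 25.8, 18.9 and 25.3 CPM in the treated libraries (log2 FC -1.54 ± 0.15 SE, adjusted p = 2.63e-08). CCNB1, cyclin B1, stood at 321, 302 and 384 CPM in the control libraries and 182, 151 and 145 CPM in the treated libraries (log2 FC -1.07 ± 0.12 SE, adjusted p = 2.99e-07). The controls of both genes lay above all treated libraries. TPX2, a spindle assembly factor, fell by 1.08 on the log2 scale, HJURP, the chaperone of centromeric histone, by 1.00, and CDC20, an activator of the anaphase-promoting complex, by 1.18. In the G1/S and DNA replication list 27 of 77 members were called downwards (35.1%). Upwards 13 were called (16.9%), a share near that of all genes. The median of this list was -0.09, which changed sign to 0.0076 with library size alone. CCNE2, cyclin E2, rose by 0.43 and CDK2 by 0.44, while CCND2 fell by 0.92 and CCNA2 by 0.81. TYMS, the gene of thymidylate synthase, was measured at 211, 223 and 234 CPM in the control libraries and 227, 213 and 212 CPM in the treated libraries (log2 FC -0.03 ± 0.09 SE, adjusted p = 0.819), and its groups overlapped.

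Promoters of mitotic genes are known for CCAAT boxes, bound by NF-Y, and for the cell cycle genes homology region (CHR), bound by the DREAM and MuvB complexes. In the 250 bases before the RefSeq start (GRCh38.p14), 41 of the 58 promoters matched to the mitotic list held CCAAT (70.7%), against 34.8% of 12042 promoters of tested genes. TTTGAA or TTTAAA, the letters of the CHR, was found in 37 (63.8%), against 1802 of the 12042. Both strands were searched, and a match is a description of the letters and no proof of a site. Those of CCNB1 (chr5:69166900-69167149, plus strand), HJURP (chr2:233854536-233854785, minus strand) and PLK1 (chr16:23678639-23678888, plus strand) are shown with these letters in capitals, because they belong to the list with the largest share of calls downwards.
CCNB1: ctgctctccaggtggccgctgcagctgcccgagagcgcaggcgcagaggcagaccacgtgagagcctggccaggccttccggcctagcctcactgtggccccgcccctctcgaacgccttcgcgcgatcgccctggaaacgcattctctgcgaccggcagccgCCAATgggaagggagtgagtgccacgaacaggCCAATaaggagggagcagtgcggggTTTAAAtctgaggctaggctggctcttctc
HJURP: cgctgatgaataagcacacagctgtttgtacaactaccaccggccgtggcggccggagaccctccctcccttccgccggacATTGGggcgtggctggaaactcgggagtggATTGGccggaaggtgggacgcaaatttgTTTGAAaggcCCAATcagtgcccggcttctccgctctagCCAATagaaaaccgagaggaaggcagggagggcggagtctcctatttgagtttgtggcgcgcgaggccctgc
PLK1: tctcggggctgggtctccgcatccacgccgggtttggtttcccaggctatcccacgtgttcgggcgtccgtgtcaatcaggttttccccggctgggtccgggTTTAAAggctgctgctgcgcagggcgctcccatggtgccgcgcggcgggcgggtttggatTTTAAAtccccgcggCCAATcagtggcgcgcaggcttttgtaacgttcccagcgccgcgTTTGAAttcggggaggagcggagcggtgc

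Genes of RNA production fell in part. Over all genes tested, 14.4% were called upwards and 16.3% downwards. Of 97 genes of ribosome biogenesis, 2 passed the test upwards and 52 downwards, with a median log2 FC of -0.30. Among them WDR43 and DDX10, factors of pre-rRNA processing, fell by 0.72 and 0.85 on the log2 scale. Of 79 genes of cytosolic ribosomal proteins 12 passed upwards in edgeR, a share of 15.2% near that of all genes, with a median log2 FC of 0.06. Downwards the count was 0 in edgeR, in DESeq2 and at an unadjusted p under 0.05. RPLP1, 1 of the 12, rose by 0.64. Among SR proteins and their kinases 2 of 24 passed upwards and 10 downwards, among core spliceosome and hnRNP proteins 5 of 102 and 29, and among subunits of the RNA polymerases 4 of 50 and 15. SRSF3, a splicing factor, fell from 679.9 to 849 CPM in the controls to 333 to 404 CPM (log2 FC -1.08 ± 0.12 SE, adjusted p = 1.41e-07). POLR1B, a core subunit of RNA polymerase I, fell by 0.54, and CDK12, a kinase of elongating polymerase II, by 0.83. HEXIM1, an inhibitor of P-TEFb, rose by 0.56.

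Lists of chaperones and DNA repair held more calls downwards than upwards, where 14.4% of all genes tested were called upwards and 16.3% downwards. Of 52 heat shock proteins and chaperones, 5 passed the test upwards and 18 downwards, and HSPA8, the constitutive Hsc70, was measured at 7448, 6384 and 8214 CPM in the control libraries and 4186, 3584 and 3504 CPM in the treated libraries (log2 FC -0.97 ± 0.12 SE, adjusted p = 1.47e-06). Of 86 genes of DNA damage signalling and repair, 5 passed upwards and 34 downwards, and MSH6, a mismatch repair gene, fell by 0.75. Nuclear genes of oxidative phosphorylation had 13 of 76 called upwards, a share of 17.1% near that of all genes. Their median log2 FC was 0.04, and 1 was called downwards (1.32%). Genes of pyrimidine and folate metabolism, which include the targets and carriers of fluoropyrimidines, stayed near the background shares with 5 of 45 called upwards and 6 downwards. Within this list, NT5C2, a cytosolic nucleotidase, fell by 1.06 and UCK2, the uridine-cytidine kinase that phosphorylates ethynylcytidine, was measured at 192, 213 and 189 CPM in the control libraries and 135, 123 and 137 CPM in the treated libraries (log2 FC -0.59 ± 0.08 SE, adjusted p = 3.03e-06). In the list of the interferon response 11 of 29 passed upwards and 4 downwards, with STAT2 rising by 0.79. Of the nuclear long noncoding RNAs, NEAT1, the scaffold of paraspeckles, rose by 0.80.

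**Figure D2:**
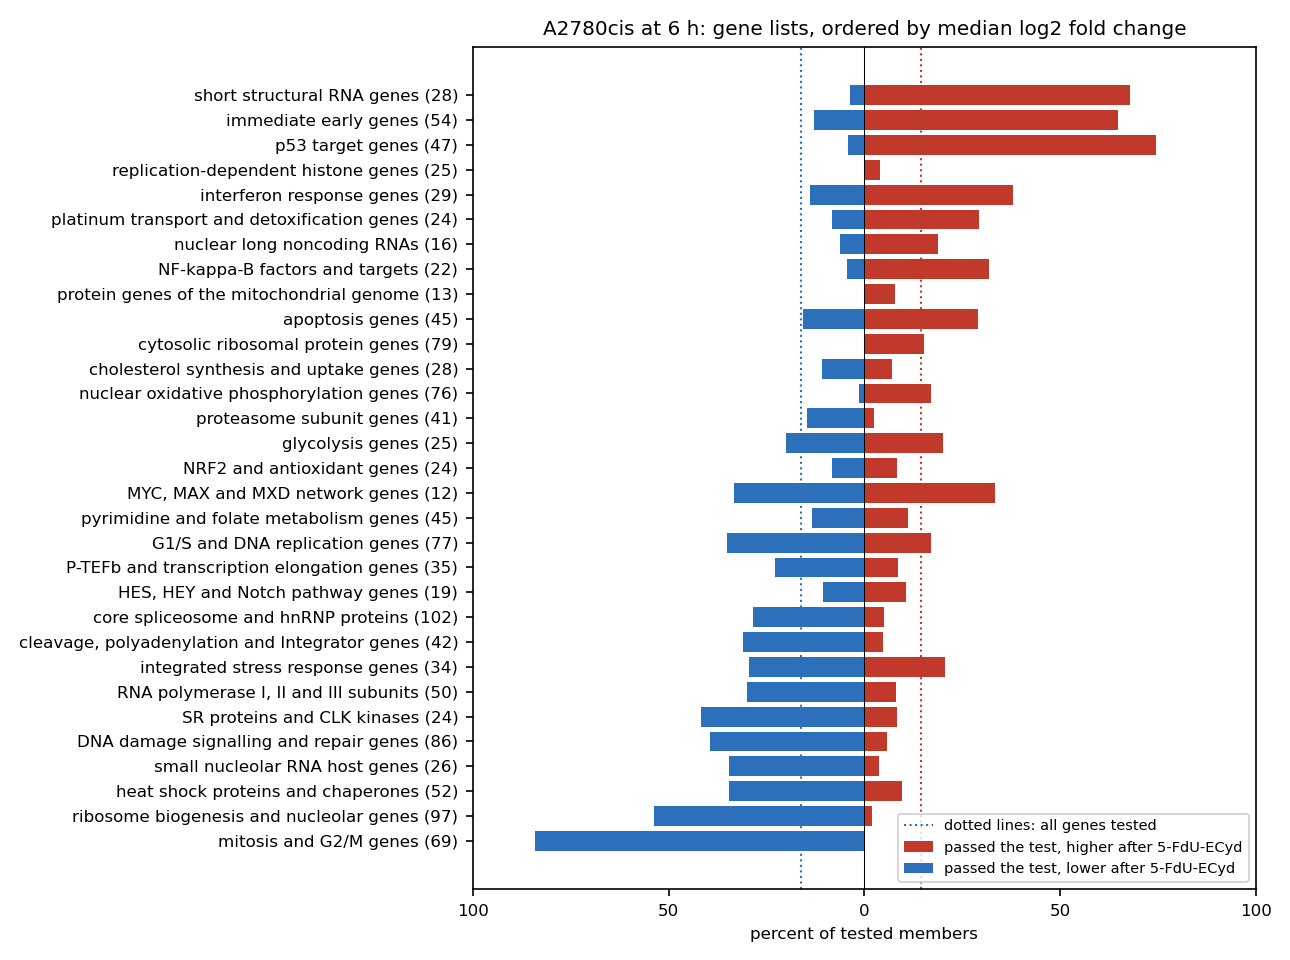
Share of tested members of each gene list that passed the test in A2780cis at 6 h, higher in treated cells to the right and lower to the left, in percent, with the number tested in brackets. Lists are ordered by median log2 FC, and dotted lines mark the shares over all genes tested (14.4% and 16.3%). p53 targets reach 74.5% upwards and mitotic genes 84.1% downwards.

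The 10 largest decreases were of another kind, and 8 of them spanned more than 50 kb. Of 13882 protein-coding genes, 2458 spanned 50 to 100 kb, 1696 spanned 100 to 200 kb and 1034 more than 200 kb. NACC2, a transcriptional repressor with a BTB domain at chr9:136006537-136095289, was measured at 18.2, 26.7 and 20.4 CPM in the control libraries and 1.04, 1.46 and 1.98 CPM in the treated libraries (log2 FC -3.80 ± 0.23 SE, adjusted p = 8.12e-12). BAIAP2, an adaptor of the actin cytoskeleton at chr17:81035122-81117434, stood at 16.5, 15.9 and 13.2 CPM in the control libraries and 0.957, 1.46 and 2.07 CPM in the treated libraries (log2 FC -3.26 ± 0.25 SE, adjusted p = 3.38e-10). The 10 largest decreases were taken by the same rule as the increases, so groups without overlap were a condition of the choice. RXRA, the retinoid X receptor alpha at chr9:134317098-134440585, was found at 15.9, 17.7 and 16.8 CPM in the control libraries and 2.23, 2.04 and 2.36 CPM in the treated libraries (log2 FC -2.91 ± 0.21 SE, adjusted p = 1.37e-10). SLC19A1, the reduced folate carrier at chr21:45493572-45573365, fell by 2.76 on the log2 scale from controls of 23.2 to 25.5 CPM. FAM53B, FAM20C, KIF26B and VAV2 had log2 FC of -2.83, -2.73, -2.52 and -2.51. Genes under 50 kb were among the 10 as well: SOX8, a transcription factor gene of 5.21 kb, had a log2 FC of -2.60, and CAPN15, of 26.9 kb, of -2.47. NACC2, BAIAP2, RXRA, SLC19A1, FAM20C, VAV2 and CAPN15 had treated means of 1.49 to 3.48 CPM. They passed the limit of 2 in mean log2 CPM only through the controls. The distance to the nearest chromosome end ran from 0.193 Mb for FAM20C to 9.05 Mb for FAM53B. Over all protein-coding genes the median distance was 29.2 Mb, and 13.1% lay within 5 Mb of an end.

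Over genes, which are not replicates, the values are a description. Across 13882 protein-coding genes, change at 6 h went with the length of the gene. Of all of them 15.3% were called upwards and 20.2% downwards. Genes of up to 10 kb had a median log2 FC of 0.20, with 674 of 2618 called upwards (25.7%) and 205 downwards (7.83%). Genes over 200 kb had a median of -0.45, with 15 of 1034 called upwards and 500 downwards. Spearman's rho between log2 FC and span was -0.40 and that with the GC content of the span 0.40, over genes that share the same libraries. Among genes of up to 20 kb, those with a GC content above 55% had a median of 0.38 and those of up to 40% had -0.05. Among genes over 50 kb the medians were -0.31 and -0.29. With GC-dependent offsets, added after seeing the data, these became -0.66 and -0.18, and the median of short genes with a GC content of up to 40% turned to 0.04.

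The long GC-rich genes were split by their place on the chromosome. Of the 149 over 50 kb with a GC content above 55%, 86 lay within 5 Mb of a chromosome end, and 46 of these were called downwards (53.5%) and 2 upwards (median log2 FC -0.71). Of the 63 farther away, 11 were called downwards (17.5%) and 10 upwards (15.9%), shares near those of all protein-coding genes (median 0.14). In libraries that took no part in this comparison the medians of both sets were -0.23 and 0.32 for A2780 at 6 h, and -0.99 and -0.30 for A2780cis at 12 h. Of the short GC-rich genes (up to 20 kb, GC content above 55%), 605 lay within 5 Mb of a chromosome end. Of these, 163 were called upwards (26.9%) and 66 downwards (10.9%) in A2780cis at 6 h, with a median of 0.29. The limits of span, GC content and distance were chosen after the values were seen, and no test was made. GC content also moved with the library within each group: the median deviation of short GC-rich genes from their mean over the 6 libraries was -0.10, -0.32 and -0.08 (log2) in the controls and 0.007, 0.19 and 0.36 in the treated libraries. With the same offsets the median of the short GC-rich genes dropped to 0.07, that of the 86 genes near chromosome ends to -1.04 and that of the 63 others to -0.18.

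**Figure D3:**
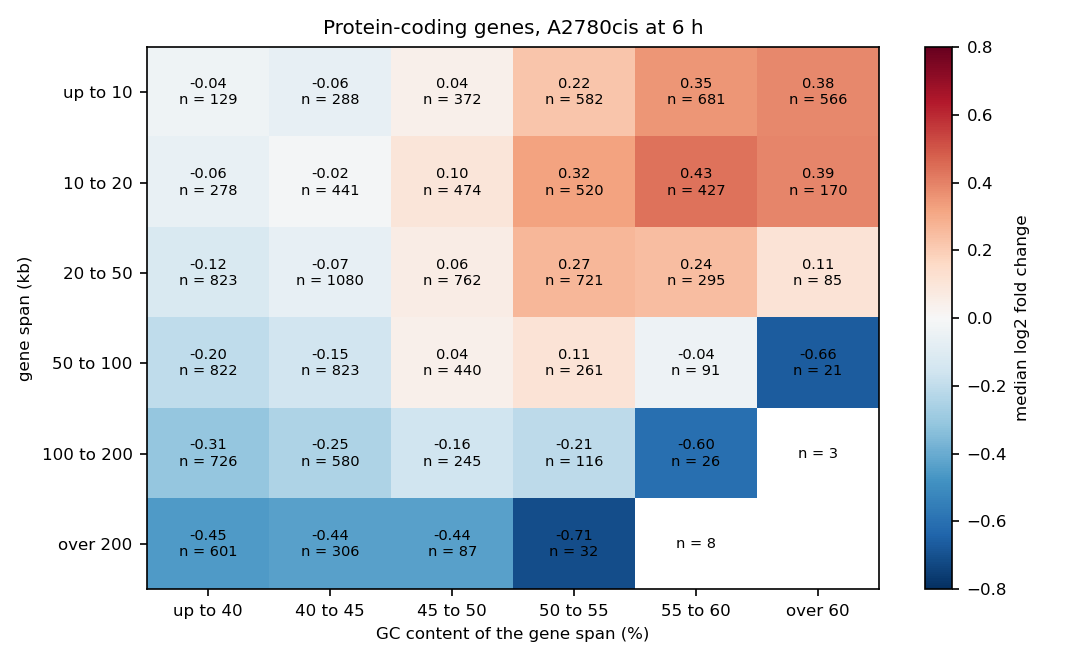
Median log2 FC (treated against control, A2780cis at 6 h) of protein-coding genes by gene span in kb and GC content of the span in percent, with the number of genes in each field. Fields with fewer than 20 genes are left white. Medians run from 0.43 in GC-rich genes of 10 to 20 kb to -0.71 in genes over 200 kb with a GC content of 50 to 55%.

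Short structural RNAs separated the treated libraries from each other. The 17 annotated copies of 5S rRNA, the small RNA of the large ribosomal subunit made by RNA polymerase III, summed to 2.68, 1.60 and 1.47 CPM in the controls and 308, 412 and 3.72 CPM in treated replicates 1, 2 and 3. Replicates 1 and 2 lay far above every control, whereas replicate 3 lay just above them. All 17 copies were called upwards with at most 3 counts in every control library, and their median log2 FC was 6.81 as fitted and 5.68 with each copy at its bound. With treated replicate 3 as the only treated library of this group the fitted median was 0.92, and the calls of RNA5S11, RN7SK and the rDNA genes were lost. The 5.8S rRNA genes summed to 7.76, 5.62 and 10.5 CPM in the controls and 546, 1268 and 9.80 CPM in treated replicates 1, 2 and 3. U1 (RNU1-1), the snRNA that pairs with 5' splice sites, had 0.092, 0.100 and 0.082 CPM in the controls and 10.4, 10.2 and 0.141 CPM in treated replicates 1, 2 and 3, and RN7SK, the scaffold that holds P-TEFb inactive, had 0.185, 0.201 and 0.654 CPM in the controls and 33.6, 68.9 and 1.84 CPM in treated replicates 1, 2 and 3. The same split was present in SNORD3A (U3) and in RPPH1, the RNA of RNase P. It was absent from RNU6-1 (U6), which lay between 0.185 and 0.654 CPM in the 6 libraries, and from SNORD118 (U8), between 0.164 and 0.924 CPM.

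As 16 of the 17 copies of 5S rRNA are identical in the reference over their 119 bases, a read cannot be assigned to 1 of them, and the authors' counting gave each copy a fraction. RNU1-1 (chr1:16514122-16514285, minus strand, hg38, GENCODE release 44) is shown as 1 of the RNAs that set the treated libraries apart, and the capitals mark the bases that pair with 5' splice sites.
RNU1-1: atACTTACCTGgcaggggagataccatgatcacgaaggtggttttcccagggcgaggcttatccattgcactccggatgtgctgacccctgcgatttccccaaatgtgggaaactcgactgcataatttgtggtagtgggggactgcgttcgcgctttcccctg

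In all, 77 of the genes called upwards had treated replicates 1 and 2 at least 4-fold above replicate 3, among them 27 of the snRNA class, 21 of the rRNA class, 7 of misc_RNA, 6 snoRNAs and 6 lncRNAs. All of them were among the 364 genes that moved by 2 or more on the log2 scale, of which 287 were left without them. The 4 rDNA lncRNA genes belong to this set, and their sum was 193, 186 and 260.3 CPM in the controls and 5562, 15523 and 349 CPM in treated replicates 1, 2 and 3. In A2780cis at both times, the 5S sum was at least 50 CPM in 5 of 6 treated libraries (144 to 412 CPM) and in 0 of 6 controls (1.47 to 2.98 CPM), treated replicate 3 of 6 h being the exception. In A2780 it was at least 50 CPM in 2 control libraries and 1 treated library of 12 h, and in 0 libraries of 6 h. The part of treatment and of the libraries in this split was not tested. CDKN1A, BTG2, FOS and NACC2 were taken from genes whose groups did not overlap, which puts treated replicate 3 on the side of replicates 1 and 2. The 4 rDNA genes met the same rule. In treated replicates 1, 2 and 3 CDKN1A stood at 78.5, 85.9 and 90.0 CPM and BTG2 at 151, 145 and 156 CPM. FOS stood at 14.8, 17.3 and 18.7 CPM and NACC2 at 1.04, 1.46 and 1.98 CPM. PLK1 also had treated replicate 3 below all controls. RN7SL1, the 7SL RNA of the signal recognition particle, had 88.9, 67.7 and 80.8 CPM in the controls and 153, 255 and 116 CPM in treated replicates 1, 2 and 3, a smaller spread in the same order.

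**Figure D4:**
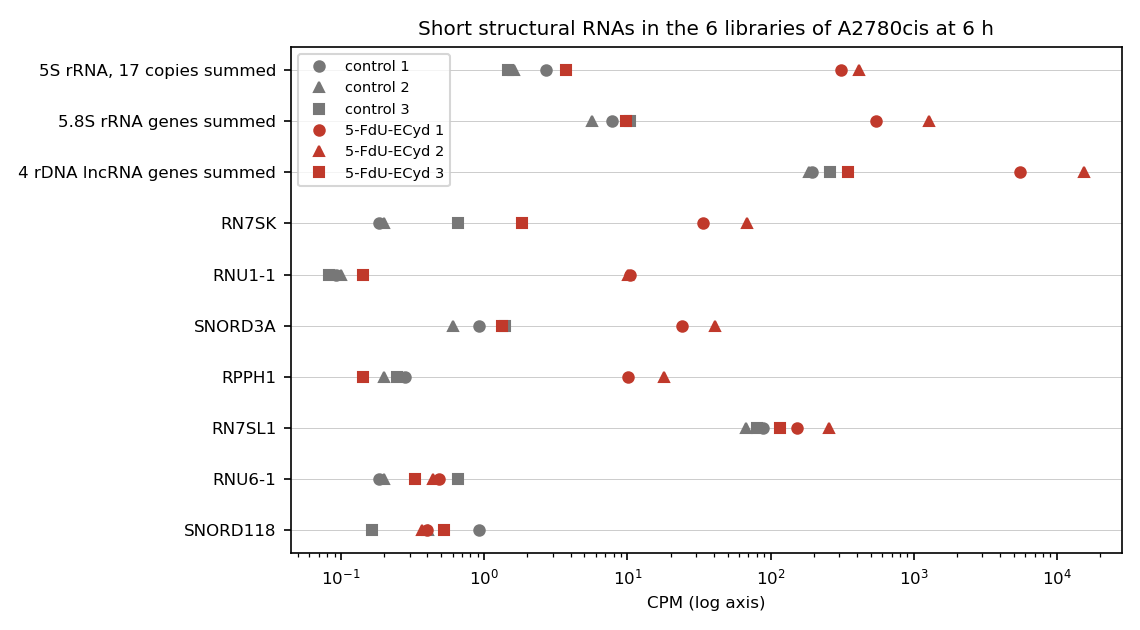
CPM on a log axis for short structural RNAs in the 6 libraries of A2780cis at 6 h, with grey for controls, red for treated, and circle, triangle and square for replicates 1, 2 and 3. In the upper 7 rows treated replicate 3 lies near or among the controls (5S rRNA 3.72 CPM) and treated replicates 1 and 2 far to the right (308 and 412 CPM). RNU6-1 and SNORD118 show no such split.

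Treated A2780 cells of 6 h, compared with their own controls, gave 5950 calls (29.4% of the genes tested). Of the genes called upwards in A2780cis, 1535 (52.6%) were also called upwards in A2780, or 47.3% of its list, which holds 3244 genes. Of those called downwards, 1645 (49.9%) were shared, or 60.8% of the 2706 in the A2780 list. Opposite calls were made for 21 and 48 genes. A test of the difference between the responses of the lines called 622 genes (3.07%), with 140 higher (0.692%) and 482 lower (2.38%) in A2780cis. This count was 1344 with GC-dependent offsets, and 357, 408, 391 and 372 without A2780 control replicate 1, A2780 treated replicate 2, A2780cis control replicate 2 and A2780cis treated replicate 2.

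CDKN1A and BTG2 were not called as different between the lines (differences of 0.25 ± 0.15 SE, adjusted p = 0.474 and -0.27 ± 0.16 SE, adjusted p = 0.466 in edgeR's quasi-likelihood test). FOS rose more in A2780cis, by 3.20 against 1.90 in A2780 (difference 1.30 ± 0.26 SE, adjusted p = 0.00455), and GADD45A rose by 2.22 against 1.26 (difference 0.96 ± 0.21 SE, adjusted p = 0.00931). Without replicates 1 and 2 of treated A2780cis the calls of GADD45A and APAF1 were lost, and the count of genes called fell to 107. SESN2 rose by 1.63 against 0.88 (difference 0.74 ± 0.16 SE, adjusted p = 0.0072). Genes with a larger response in A2780 included members of the apoptosis and G1/S lists. FAS had log2 FC of 0.14 in A2780cis and 1.36 in A2780 (difference -1.22 ± 0.19 SE, adjusted p = 4.49e-04), and APAF1, the core of the apoptosome, 0.26 and 1.07 (difference -0.82 ± 0.18 SE, adjusted p = 0.0114). CCNE1, cyclin E1, had 0.03 and 0.79 (difference -0.77 ± 0.12 SE, adjusted p = 5.61e-04).

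The lowest differences among genes that averaged 2 or more in log2 CPM over the 12 libraries of both lines were those of SSH3, a cofilin phosphatase, with log2 FC of 0.38 in A2780cis and 2.99 in A2780, FAM53B with -2.83 and -0.58, and MOCOS, the molybdenum cofactor sulfurase, with 0.04 and 2.03. In A2780 both SSH3 and MOCOS were low: SSH3 controls were at 0.287, 0.378 and 0.546 CPM and treated libraries at 3.04 to 3.52 CPM, and MOCOS controls at 0.431, 0.378 and 0.909 CPM and treated libraries at 2.04 to 2.73 CPM. In A2780cis SSH3 was at 10.6 to 11.7 CPM in controls and 12.9 to 16.9 CPM in treated libraries. MOCOS was at 38.1 to 41.0 CPM in the A2780cis controls and 39.2 to 42.1 CPM in the treated libraries. Of the 10 largest decreases in A2780cis, 7 were called as deeper there than in A2780, among them BAIAP2, RXRA and VAV2. As these 10 were chosen for their fall in A2780cis, a larger value in this line is partly given by the choice. The 3 highest differences were those of rDNA lncRNA genes, which rest on treated replicates 1 and 2 of A2780cis and were 0.65 to 0.68 with replicate 3 alone.

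**Figure D5:**
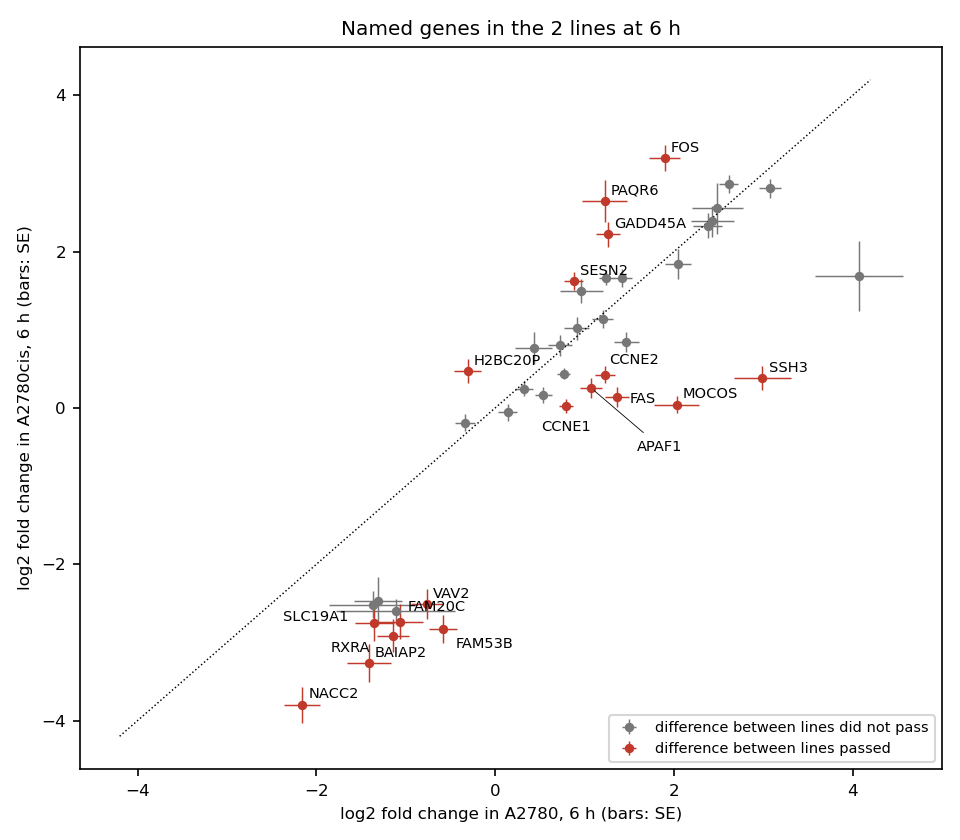
Log2 FC at 6 h in A2780 (x axis) and A2780cis (y axis) of the genes named for the largest changes, for differences between lines or times, as p53 targets or because the study discussed them, with standard errors. Red points passed the test of the difference between the lines, and the dotted line marks equal values. SSH3 and MOCOS lie far below the line, FOS and GADD45A above it, and the genes with the deepest falls in A2780cis below it.

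Most calls of 6 h were present after 12 h in separate A2780cis libraries. Of the genes called upwards at 6 h, 2181 (74.8%) were called upwards at 12 h, or 34.8% of that list. Of those called downwards, 2919 (88.6%) were, or 49.8% of that list. At 12 h 59.9% of all tested genes were called. The change of the response from 6 h to 12 h was called upwards for 2093 genes (10.3%) and downwards for 2759 (13.6%). CDKN1A went on to rise, from 2.86 to 4.12 (difference 1.26 ± 0.16 SE, adjusted p = 7.31e-06), while BTG2 moved from 2.81 to 3.23 (difference 0.42 ± 0.16 SE, adjusted p = 0.0621), which did not pass. HES2, a transcription factor of the hairy family, moved from 2.39 to 4.64, with at most 16 counts in the 6 h controls (0.602 to 1.31 CPM) and 36.1 to 39.2 CPM in the treated libraries of 12 h. S1PR3, a sphingosine phosphate receptor, moved from 1.84 to 4.07, with 1.72 to 1.85 CPM in the 6 h controls. They passed the limit of 2 in mean log2 CPM over the 12 libraries of both times, but not over the 6 of 6 h.

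Mitotic genes fell further: their median log2 FC was -0.72 at 6 h and -1.37 at 12 h, and the change was called downwards for 45 of 69. HSPA8 went from -0.97 to -3.01 (difference -2.04 ± 0.17 SE, adjusted p = 5.81e-08). HSPA1A, the stress-inducible Hsp70, turned from 0.81 at 6 h to -1.27 at 12 h (difference -2.08 ± 0.37 SE, adjusted p = 2.52e-04). Its call at 6 h was lost without control replicate 1, control replicate 2 or treated replicate 3. The median of the ribosome biogenesis list went from -0.30 to -0.79, and that of the p53 targets from 0.78 to 1.41.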

How the data were processed

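RNA of 24 libraries, in 8 groups of 3 by line, treatment and time, was sequenced by the authors, who trimmed reads with Trimmomatic, aligned them to GRCh38 (p7) with STAR 2.5.2b and counted them per gene with featureCounts. The authors deposited expected counts per gene, in which multi-aligned reads enter as fractions, so that copies of one sequence share reads. The strand setting of the counting is not given in the sources used here, so a gene and its antisense partner may not be told apart. Of 63299 genes, 20262 had no count.

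Counts were rounded, filtered with filterByExpr (minimum count 10, minimum total 15), scaled by TMM and fitted in edgeR 4.0.16 (R 4.3.3) with 1 coefficient per group over all 24 libraries, which leaves 16 residual degrees of freedom. Quasi-likelihood tests were adjusted by Benjamini-Hochberg. DESeq2 1.42.0 was an alternative, as were other scalings, filters, a replicate block, the compared libraries alone, each library left out, treated replicate 3 alone and GC-dependent offsets. The script was tested on simulated data. Genes were annotated with GENCODE release 44, which matched 56993. Named were the 10 largest increases and decreases among called genes that averaged 2 or more in log2 CPM and whose groups did not overlap, leaving out rRNA genes, up to 3 members of each list with the smallest p, the genes the study discussed, the 3 largest differences in each direction between lines and between times, and the sum of the 5S copies. CCNB1, CDC20, MDM2, JUN, JUNB, EGR1, IER2, MYC, KLF6 and TYMS, the motifs and the promoters shown were chosen after values were seen, and the promoters of BTG2, CDKN1A and FOS were examined and left out. Members and lists were chosen with earlier results of these data known.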

Additional observations from a re-analysis of the deposited data

Results flagged for a closer look

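For 34 named genes the response at 6 h passed edgeR's test of the difference between A2780cis and A2780. The difference, log2 FC in A2780cis minus log2 FC in A2780, was 2.40 for IFI27, 1.43 for PAQR6, 1.30 for FOS, 0.96 for GADD45A, 0.95 for NEAT1, 0.94 for IER2, 0.93 for MALAT1, 0.78 for H2BC20P, 0.74 for SESN2, 0.74 for NFKBIZ, 0.63 for STAT2 and 0.55 for IRF1 where it was positive. It was -2.61 for SSH3, -2.24 for FAM53B, -1.99 for MOCOS, -1.85 for BAIAP2, -1.77 for RXRA, -1.75 for VAV2, -1.66 for FAM20C, -1.64 for NACC2, -1.41 for SLC19A1, -1.22 for FAS, -1.21 for SLC7A5, -0.96 for SNHG7, -0.82 for APAF1, -0.80 for CCNE2, -0.80 for PFKP, -0.77 for CCNE1, -0.57 for HSF2 and -0.54 for NFKB1 where it was negative. For the 4 rDNA lncRNA genes it was 5.03 for ENSG00000281181, 5.03 for ENSG00000280800, 5.02 for ENSG00000280614 and 5.02 for ENSG00000281383, values that rest on treated replicates 1 and 2 of A2780cis. Differences of genes chosen for a large change in A2780cis are partly given by that choice. The calls of IRF1, H2BC20P, PAQR6, MALAT1 and PFKP were each lost under 8 or more of the alternatives, and 23 of the 34 calls, those 5 included, were lost with treated replicate 3 of A2780cis as the only treated library. SSH3 and MOCOS had under 1 CPM in every A2780 control library. IFI27 had at most 3 counts in every A2780cis control library of 6 h, so its difference of 2.40 rests on the prior count.

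The change of the response of A2780cis from 6 h to 12 h passed edgeR's test for 71 of the 155 named genes. For the 7 of them whose change between times is described, the log2 FC at 12 h minus that at 6 h was 1.26 for CDKN1A, -2.04 for HSPA8, 2.25 for HES2, 2.22 for S1PR3, 2.14 for H2BC20P, -2.20 for PI15 and -2.08 for HSPA1A. Each time had its own control and treated libraries.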

How the results depend on the processing

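Of 136 named genes past the threshold, 107 passed it under every alternative run, and none reversed. The number of genes called was 3942, and that of genes called downwards 1947, when treated replicate 3 was the only treated library kept, and the cause was not tested. The number called upwards ran from 1942 to 2938 over the libraries left out in turn, the lowest without treated replicate 3. With the 6 compared libraries alone 153 genes had an absolute log2 FC of at least 2. The number called for the difference between lines was 1344 with GC-dependent offsets, 107 with treated replicate 3 alone and 357 to 642 over the libraries left out, the lowest counts being those without A2780 control 1, A2780 treated 2, A2780cis control 2 or A2780cis treated 2. The change from 6 h to 12 h was called for 3072 genes with treated replicate 3 alone.

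Medians were held against the spread between libraries of both groups, a measure chosen after the data were seen in place of the spread of the treated libraries alone. Of 711 recomputed medians, 53 moved by more than this spread, and 127 would have by the first measure. With library size alone the median log2 FC was 0.88 for p53 target genes, -0.067 for integrated stress response genes, -0.0999 for heat shock proteins and chaperones, 0.0076 for G1/S and DNA replication genes, 0.059 for pyrimidine and folate metabolism genes, -0.098 for DNA damage signalling and repair genes, 0.20 for apoptosis genes, 0.30 for NF-kappa-B factors and targets, -0.091 for SR proteins and CLK kinases, -0.015 for core spliceosome and hnRNP proteins, -0.045 for cleavage, polyadenylation and Integrator genes, -0.083 for RNA polymerase I, II and III subunits, -0.0074 for P-TEFb and transcription elongation genes, -0.20 for ribosome biogenesis and nucleolar genes, 0.27 for protein genes of the mitochondrial genome, 0.15 for cholesterol synthesis and uptake genes, 0.10 for glycolysis genes, 0.097 for NRF2 and antioxidant genes, 0.34 for platinum transport and detoxification genes, 0.39 for interferon response genes, 0.085 for MYC, MAX and MXD network genes, 0.098 for all genes tested. With GC-dependent offsets, chosen after the data were seen, it was 0.64 for immediate early genes, -0.047 for cholesterol synthesis and uptake genes, -0.11 for glycolysis genes, -0.082 for NRF2 and antioxidant genes, -0.22 for MYC, MAX and MXD network genes, -0.66 for protein-coding genes over 50 kb with GC above 55%, -0.18 for protein-coding genes over 50 kb with GC up to 40%, 0.067 for protein-coding genes up to 20 kb with GC above 55%, 0.044 for protein-coding genes up to 20 kb with GC up to 40%, -1.04 for protein-coding genes over 50 kb with GC above 55% within 5 Mb of a chromosome end, -0.18 for protein-coding genes over 50 kb with GC above 55% farther than 5 Mb from a chromosome end, -0.016 for all genes tested. With treated replicate 3 alone it was -0.27 for DNA damage signalling and repair genes, 0.17 for NF-kappa-B factors and targets, -0.23 for cleavage, polyadenylation and Integrator genes, 0.47 for short structural RNA genes, 0.92 for 5S rRNA gene copies, 0.061 for nuclear long noncoding RNAs, 0.14 for glycolysis genes, 0.11 for HES, HEY and Notch pathway genes, -0.15 for fibroblast and endothelial markers. With only the compared libraries it was 0.96 for short structural RNA genes, 0.093 for cholesterol synthesis and uptake genes, -0.22 for fibroblast and endothelial markers, 0.014 for all genes tested. Without lncRNA and rRNA genes it was -0.51 for small nucleolar RNA host genes. With all genes that had any count it was 0.025 for all genes tested. Over the libraries left out in turn it ran from 0.19 to 0.29 for NF-kappa-B factors and targets, from 0.0019 to 0.089 for cholesterol synthesis and uptake genes, from 0 to 0.013 for all genes tested.

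No pairing by replicate number was seen: the correlation of deviations between same-numbered control and treated libraries was -0.098, -0.073 and 0.011. Between libraries of unlike number it ran from -0.035 to 0.108. These values cannot show whether same-numbered libraries were handled together. With the replicate number as a block 6483 genes were called, 6157 of them shared with the 6212, and all 3 libraries of each group entered. Depths of 11077368 to 21901406 counts leave genes with at most 3 counts in every control library without a known fold change.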
